A study of Arabidopsis thaliana with 12 samples.

Results

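The subject is how the effects of 2 Arabidopsis mutations combine. The interaction of lon2-8 and atg2-4 was taken for each gene as the change from atg2-4 to the lon2-8 atg2-4 double mutant minus the change from Col-0 to lon2-8, on log2(FPKM + 1). FPKM, the fragments of a gene scaled by its length and by the library's depth, is the deposited level of a gene in a library. A value of 0 means that both mutations added up on the log scale, a positive value that the double mutant lay above that sum, and a negative value that it lay below. Of the 26093 genes in the deposited table, 20662 had at least 1 FPKM in at least 3 of the 12 libraries and were tested, and 2723 of them had an interaction with an adjusted p under 0.05. A gene with such a p in a comparison is said to be called in it, and adjusted p values come from limma, two-sided, with Benjamini-Hochberg adjustment over all genes tested.

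Whole seedlings were grown on a plant nutrient medium under continuous light. The wild type was the ecotype Col-0, and both single mutants and the double mutant carry that ecotype in their labels. Each of the 4 groups, Col-0, lon2-8, atg2-4 and lon2-8 atg2-4, had 3 libraries, given as biological replicates, and each gene is represented by 1 mutant allele. The age is 6 days in one label and 8 days in another, and no batch is given.

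Peroxisomes carry out fatty acid β-oxidation, part of photorespiration and much hydrogen peroxide metabolism, and in germinating seedlings they also hold the glyoxylate cycle that turns stored oil into sugar. LON2 is the Lon-type ATP-dependent protease of the peroxisome matrix, where it degrades obsolete or damaged proteins. ATG2 transfers lipid to the growing autophagosome, and autophagy of whole peroxisomes, called pexophagy, is known to be increased when LON2 is lost, so that loss of autophagy is known from genetic work to relieve several peroxisomal defects of lon2 mutants. A 2 × 2 set of genotypes allows the effect of lon2-8 to be compared with and without functional autophagy, in groups that share no libraries.

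The 3 Col-0 libraries had LON2 (AT5G47040, chromosome 5) at 24.7, 25.3 and 27.8 FPKM, and the atg2-4 libraries at 23.2, 21.9 and 21.7 FPKM. It was at 12.0, 11.1 and 11.7 FPKM in lon2-8 and at 4.45, 4.53 and 5.36 FPKM in the double mutant. Both lon2-8 groups lay below both groups without it, and the double mutant lay below lon2-8, without overlap. The fall was −1.09 ± 0.064 log2 (SE) in Col-0 and −2.01 ± 0.064 log2 in atg2-4, and its interaction was −0.92 ± 0.091 log2 (limma, adjusted p = 3.21e-05). LON2 thus had less transcript in the double mutant than the sum of both mutations gave, 4.76 FPKM against an expected 9.90 FPKM. On the linear FPKM scale the LON2 interaction was not called (adjusted p = 0.0657). ATG2 (AT3G19190, chromosome 3) had an interaction of 0.07 ± 0.086 log2 (limma, adjusted p = 0.627).

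Libraries held 14481170 to 18690658 fragments, and 19705 to 19923 genes reached 1 FPKM in a library. The sample titles and the genotype tags name opposite single mutants for 6 samples. Groups follow the column names of the table, and the LON2 levels above fit those names. Exchanging the single mutants would leave the interaction itself unchanged, since both enter it with the same sign, but would exchange the background effects used for classes. The summed FPKM of 12 root markers was 1327 to 1385 in Col-0, 1952 to 2134 in lon2-8, 854 to 909 in atg2-4 and 894 to 933 in the double mutant. That of 13 seed storage and oil body genes was 25.0 to 37.35 in Col-0, 11.7 to 21.1 in lon2-8, 14.1 to 22.1 in atg2-4 and 29.6 to 36.2 in the double mutant. That of 19 light harvesting and Rubisco genes was 23920 to 24750, 24150 to 25340, 20830 to 22190 and 22400 to 23480 in the same order. No marker of these lists was at 0 in all libraries of a group. In whole seedlings fewer cells of a type and less RNA per cell cannot be told apart.

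The lon2-8 mutation changed far fewer genes when atg2-4 was present. In Col-0, lon2-8 changed 4779 genes, 23.1% of those tested, of which 1872 rose (9.06%) and 2907 fell (14.1%). In atg2-4 it changed 1835 genes (8.88%), of which 918 rose (4.44%) and 917 fell (4.44%). The standard error was the same for both effects, with a median of 0.072 log2 over genes. Changes of at least 2-fold numbered 115 in Col-0 and 22 in atg2-4. These counts come from separate sets of libraries and do not by themselves test a gene's difference, which the interaction does.

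Interactions were called for 13.2% of the genes tested, 1466 above 0 (7.10%) and 1257 below 0 (6.08%), and had a median size of 0.41 log2. With each library centred on its median the split was 1140 above and 1547 below, so the direction of small interactions depends on the scaling. Of the called interactions 144 were at least 2-fold, 56 above 0 and 88 below. The genes called for lon2-8 in Col-0 had changed there by a median of 0.29 log2, and in atg2-4 the same genes changed by a median of 0.040 log2 in that direction. Of these 4779 genes, 632 were also called in the same direction in atg2-4, 263 in the opposite direction and 3884 in neither. Among the 115 that changed at least 2-fold in Col-0, the median change was 1.15 log2 there and 0.20 log2 in atg2-4, and 91 of them (79.1%) were called for the interaction. Genes selected in atg2-4 also changed less in the other background. The 1835 genes called there had changed by a median of 0.28 log2 and by 0.069 log2 in the same direction in Col-0. Of the 22 that changed at least 2-fold in atg2-4, 18 (81.8%) were called for the interaction. Their median change was 1.19 log2 in atg2-4 and 0.073 log2 in Col-0. The effect that picks the genes is a part of the interaction, so either selection by itself favours a high share called and a smaller second median. Across all genes tested both lon2-8 effects correlated at r = 0.144, a description over genes, which share libraries and are not replicates.

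**Figure D1:**
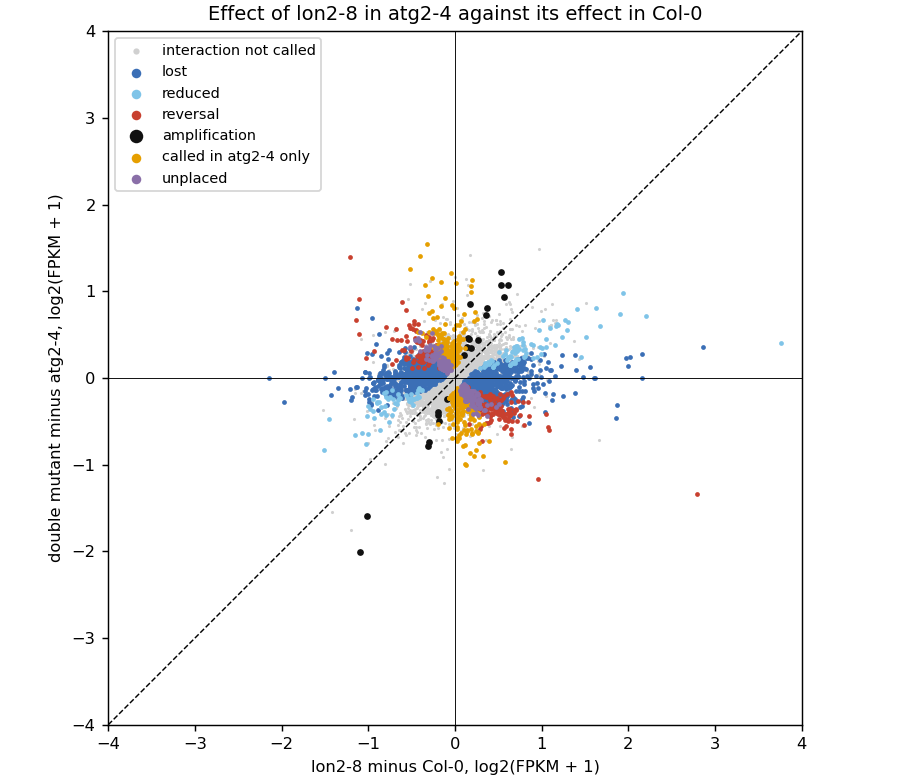
Effect of lon2-8 in atg2-4 (vertical axis) against its effect in Col-0 (horizontal axis), both as differences of log2(FPKM + 1), for the 20662 genes tested; each point is a gene, coloured by its class where the interaction was called, and the dashed line marks equal effects. Lost and reduced responses spread along the horizontal axis, reversals lie in the upper left and lower right areas, and LON2 and MAD1 are the 2 amplified genes farthest to the lower left.

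Each called interaction was put in a class from the calls of both lon2-8 effects. Suppression covered 1763 genes, 64.7% of the called interactions: in 1630 the lon2-8 response was called in Col-0 and not in atg2-4 (lost), and in 133 it was called in both with the same sign and a smaller size in atg2-4 (reduced). Reversal, with both effects called and opposite in sign, covered 263 genes (9.66%). Amplification, with the same sign and a larger effect in atg2-4, covered 21 genes (0.771%). In 438 genes (16.1%) the effect was called in atg2-4 and not in Col-0, and in 238 (8.74%) it was called in neither. Lost responses had a median size, whatever the sign, of 0.36 log2 in Col-0 and 0.084 log2 in atg2-4. In these genes, picked by a called interaction, the effect in atg2-4 had a median of −0.16 of that in Col-0. The typical lost gene thus lay slightly on the opposite side of 0 in atg2-4. A response not called in atg2-4 may still be there: for 637 of the 1630 lost genes the 95% interval of the effect in atg2-4 lay within 0.5 of its size in Col-0, and for the others it did not. Of the 1630 lost genes 944 fell and 686 rose in Col-0, beside 2907 falls and 1872 rises among all genes called for lon2-8 there. In 1012 genes (37.2% of the called interactions) both single mutants were called in the same direction and the interaction in the opposite one. Both single-mutant comparisons and the interaction share the Col-0 libraries, so that count is also fed by any noise in Col-0.

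**Figure D2:**
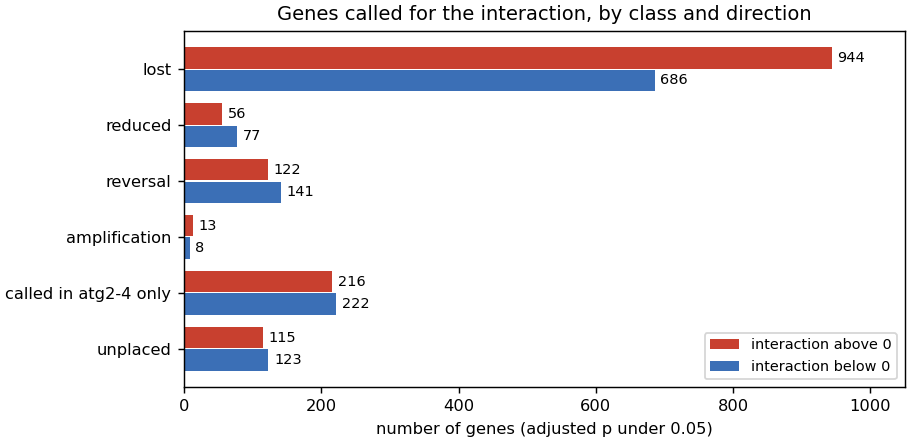
Number of genes called for the interaction (horizontal axis) in each class (vertical axis), split by the sign of the interaction. Lost responses are the longest bars, with 944 genes above 0 and 686 below, and amplification the shortest, with 13 and 8.

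Reversals held the largest interaction of the named genes. AT1G64795, a protein-coding gene without a name in RefSeq, stood at 8.64, 6.85 and 6.56 FPKM in Col-0, and at 51.6, 55.5 and 63.6 FPKM in lon2-8. It was at 46.6, 47.0 and 43.6 FPKM in atg2-4 and at 15.5, 17.7 and 19.6 FPKM in the double mutant. Each single mutant was thus far above Col-0, and all double mutant libraries lay below all single mutant libraries. Its interaction was −4.13 ± 0.14 log2 (limma, adjusted p = 1.19e-08), which set 17.5 FPKM against an expected 324 FPKM. In the RefSeq annotation of TAIR10.1 this gene overlaps AT1G64790 on the opposite strand, whose own interaction was −0.04 log2 (adjusted p = 0.813). AT3G45851, another unnamed gene, had an interaction of −2.12 ± 0.43 log2 (adjusted p = 0.00561), with wide spread in lon2-8, where it was at 19.2, 5.74 and 10.7 FPKM beside 5.73, 5.21 and 4.24 FPKM in Col-0. AT3G45850 overlaps it on the opposite strand, at 9.38 to 11.1 FPKM on average per group. The interaction of AT3G45850 was 0.07 log2 (limma, adjusted p = 0.571), and reads of both genes cannot be told apart.

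An extensin, an extensin-like gene and a defensin-like gene reversed in the other direction. AT5G59170, a proline-rich extensin-like protein in RefSeq, fell by 1.21 log2 with lon2-8 in Col-0 and rose by 1.39 log2 in atg2-4. Its levels were 2.63 to 4.67 FPKM in Col-0, 0.527 to 1.36 FPKM in lon2-8, 1.47 to 2.09 FPKM in atg2-4 and 5.19 to 7.69 FPKM in the double mutant, whose libraries lay above all others. EPR1, an extensin proline-rich protein of the cell wall, had 16.4, 16.3 and 19.9 FPKM in Col-0, 10.0, 6.07 and 7.17 in lon2-8, 11.6, 11.0 and 7.43 in atg2-4 and 20.0, 21.6 and 16.8 in the double mutant. Its Col-0 and double mutant libraries overlapped and those of the single mutants were lower, with an interaction of 2.02 ± 0.24 log2 (adjusted p = 0.000129). The defensin-like gene AT1G34047 and the unnamed gene AT1G34049 had interactions of 1.81 and 1.61 log2, but they overlap on opposite strands, and reads of one cannot be told apart from reads of the other where the use of strand is not given. The sum of both mutations put AT1G34049 at −0.0068 FPKM in the double mutant. No level can lie below 0, so the positive sign of its interaction was fixed by that floor. For AT1G34047 and AT5G59170 the sum was near the floor, at 0.24 and 0.19 FPKM. GLP9, a germin-like protein, had 2.19, 3.35 and 3.29 FPKM in Col-0, 7.02, 6.93 and 7.75 in lon2-8, 668, 747 and 761 in atg2-4 and 499, 493 and 472 in the double mutant. GLP9 rose with lon2-8 in Col-0 and fell with it in atg2-4, between groups that did not overlap (−1.64 ± 0.14 log2, adjusted p = 8.97e-06).

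Rapid stress factors, a list of ERF, ZAT, WRKY and related genes known to respond within minutes to touch, wounding or cold, moved in opposite directions in the 2 backgrounds. Of 20 genes listed, 18 passed the filter, and 16 of these (88.9%) had a positive interaction and 0 a negative one, beside 7.10% of all genes tested. Their median effect of lon2-8 was −0.48 log2 in Col-0, where 12 fell and 1 rose, and 0.33 log2 in atg2-4, where 12 rose and 0 fell. Of all genes tested, lon2-8 lowered 14.1% and raised 9.06% in Col-0, and lowered and raised 4.44% each in atg2-4. The median interaction was 0.88 log2, beside 0.028 log2 over all genes tested. This list and those below were chosen with earlier results of these data known, so their shares are descriptions and not tests. The 7 reversals were ERF5, ERF104, ERF105, ZAT6, ZAT10, WRKY40 and DIC2.

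DIC2, a dicarboxylate carrier of the mitochondrial inner membrane, had 40.4, 41.3 and 39.7 FPKM in Col-0, 27.9, 27.0 and 26.3 in lon2-8, 36.0, 38.4 and 35.7 in atg2-4 and 62.0, 67.4 and 62.8 in the double mutant. The 4 groups did not overlap, with lon2-8 lowest and the double mutant highest. Its interaction was 1.35 ± 0.059 log2 (limma, adjusted p = 8.26e-08). ERF104, an ethylene response factor of immune signalling, had 66.9, 68.0 and 63.4 FPKM in Col-0, 44.4, 40.3 and 42.9 in lon2-8, 51.1, 55.1 and 53.8 in atg2-4 and 72.4, 73.0 and 72.0 in the double mutant. Again lon2-8 was lowest and the double mutant highest without overlap (1.06 ± 0.060 log2, adjusted p = 6.57e-07). ZAT10, a zinc finger repressor of stress responses, stood at 22.2, 20.8 and 23.3 FPKM in Col-0, and at 41.4, 39.7 and 39.6 FPKM in the double mutant, with 15.1, 14.3 and 16.3 in lon2-8 and 28.0, 25.7 and 26.1 in atg2-4. WRKY33, a regulator of camalexin synthesis, instead lost its response: it had 41.4, 37.4 and 41.0 FPKM in Col-0, 21.5, 21.9 and 22.5 in lon2-8, 56.3, 55.9 and 55.0 in atg2-4 and 58.1, 60.8 and 58.9 in the double mutant. The transcript AT2G08965, which overlaps WRKY33 on the opposite strand, had an interaction of 0.71 log2, and a second overlapping gene, AT2G38480, one of 0.00 log2 (adjusted p = 0.995). Reads of overlapping genes cannot be told apart. Median centring, voom and the linear scale each called 16 positive and 0 negative interactions in the list.

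Type-A response regulators, which are induced by cytokinin and dampen its signalling, showed the opposite pattern. All 9 listed genes were tested, and 8 (88.9%) had a negative interaction and 0 a positive one, beside 6.08% of all genes tested. With lon2-8, 7 rose and 0 fell in Col-0 (all genes: 9.06% and 14.1%), and 0 rose and 6 fell in atg2-4 (4.44% each). The medians were 0.29 log2 in Col-0, −0.26 log2 in atg2-4 and −0.50 log2 for the interaction. Reversal covered ARR4, ARR6, ARR7, ARR8 and ARR9, ARR15 and ARR16 lost their rise, and ARR5 was called in atg2-4 and not in Col-0.

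ARR7 had 14.6, 17.37 and 17.5 FPKM in Col-0, 34.1, 36.5 and 36.8 in lon2-8, 20.5, 18.1 and 18.1 in atg2-4 and 12.2, 11.7 and 12.4 in the double mutant. The lon2-8 libraries were highest and the double mutant libraries lowest, without overlap (−1.68 ± 0.096 log2, adjusted p = 6.59e-07). ARR4 rose from 33.1, 32.0 and 34.1 FPKM in Col-0 to 51.1, 52.6 and 53.7 in lon2-8, while atg2-4 was at 35.5, 37.7 and 35.3 and the double mutant at 34.2, 30.6 and 31.9. Its fall in atg2-4 was small (−0.16 log2, adjusted p = 0.0405) beside a rise of 0.65 log2 in Col-0. ARR6 had an interaction of −0.66 ± 0.065 log2 (adjusted p = 3.20e-05). The list had 8 negative and 0 positive calls under median centring, voom and the linear scale alike.

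Among 12 root markers listed, 9 passed the filter, and 5 had a negative interaction and 0 a positive one, beside 6.08% and 7.10% of all genes, with a median of −0.48 log2. With lon2-8, 4 rose and 1 fell in Col-0 (all genes: 9.06% and 14.1%), and 1 rose and 2 fell in atg2-4 (4.44% each). EXP7, an expansin of root hairs, had 13.8, 12.7 and 13.0 FPKM in Col-0, 20.5, 24.3 and 17.5 in lon2-8, 14.9, 15.2 and 18.9 in atg2-4 and 12.6, 11.8 and 11.7 in the double mutant. LRX1, a root hair cell wall protein, had an interaction of −0.85 ± 0.13 log2, beside −1.02 ± 0.15 log2 for EXP7. PYK10, a β-glucosidase of root ER bodies that makes up most of the summed root level, rose by 0.63 log2 with lon2-8 in Col-0 and by 0.15 log2 in atg2-4. AT3G09250, which overlaps PYK10 on the opposite strand, had an interaction of −0.54 log2 beside −0.48 log2 for PYK10. The part of root tissue in the results on cytokinin, iron and other root-expressed genes was not tested.

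**Figure D3:**
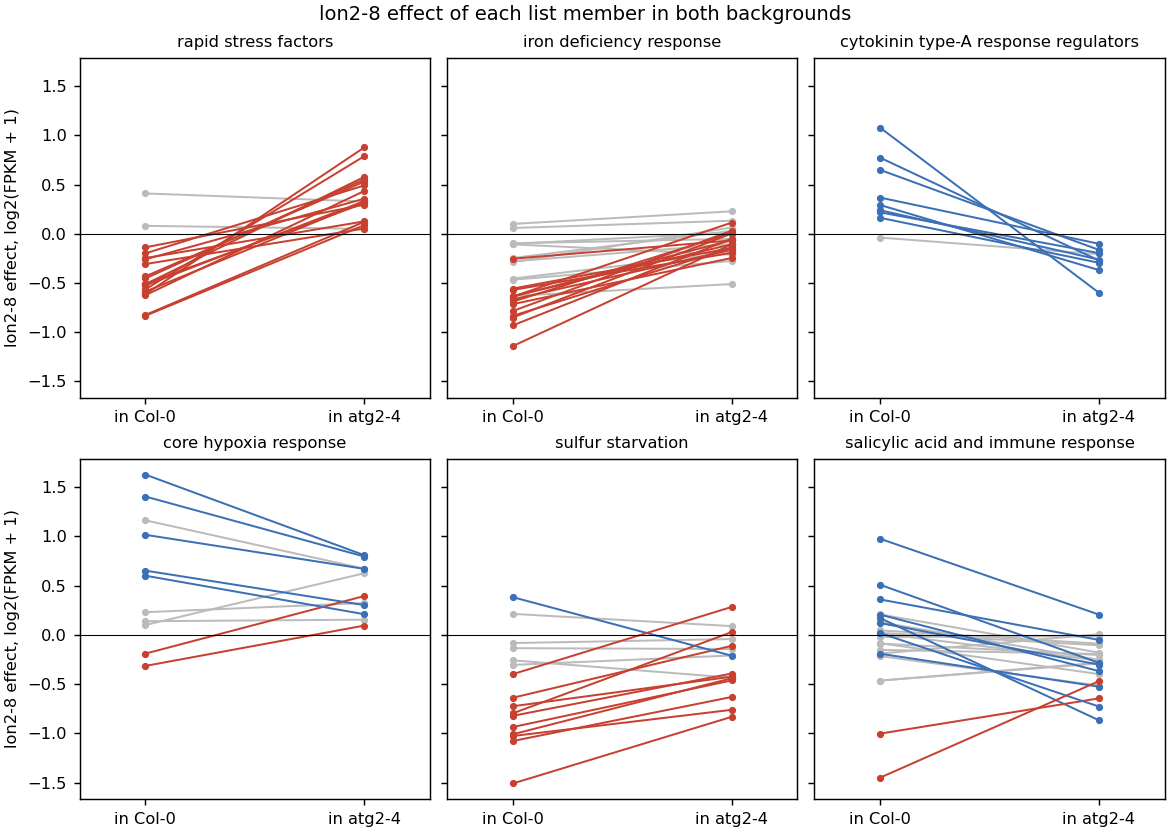
Effect of lon2-8 in Col-0 (left of each panel) and in atg2-4 (right) as differences of log2(FPKM + 1), with 1 line for each tested member of 6 gene lists; red lines have a called interaction above 0, blue lines one below 0 and grey lines none. Rapid stress factors cross from below 0 to above it and cytokinin response regulators from above to below, while the medians of the iron, sulfur and hypoxia lists are nearer to 0 in atg2-4, at −0.067, −0.30 and 0.40, than in Col-0, at −0.57, −0.68 and 0.60.

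Iron deficiency genes mostly fell with lon2-8 in Col-0, and lost falls were their most frequent class. These genes serve iron uptake in roots and are induced when iron is short by a cascade of bHLH transcription factors. Of 26 genes listed, 25 were tested. With lon2-8, 18 fell and 0 rose in Col-0 (all genes: 14.1% and 9.06%), whereas 1 rose and 3 fell in atg2-4 (4.44% each). A positive interaction was called for 14 (56.0%) and a negative one for 0, beside 7.10% and 6.08% of all genes tested, with 12 lost and 2 reduced responses. With atg2-4 alone 19 rose and 2 fell in Col-0, beside 48.5% of all genes tested that were called, 21.3% as higher and 27.2% as lower.

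BHLH100, one of these bHLH factors, had 10.9, 9.90 and 11.0 FPKM in Col-0, 5.22, 4.91 and 5.11 in lon2-8, 47.8, 46.3 and 43.9 in atg2-4 and 43.9, 44.0 and 45.3 in the double mutant. It was below Col-0 in lon2-8 and its atg2-4 and double mutant libraries overlapped (0.88 ± 0.066 log2, adjusted p = 3.93e-06). AT2G30766, an unnamed member of the list, had 7.69, 8.83 and 7.20 FPKM in Col-0, 3.06, 3.26 and 2.77 in lon2-8, 15.3, 16.2 and 14.4 in atg2-4 and 14.2, 13.9 and 14.2 in the double mutant. It fell with lon2-8 in Col-0 and did not pass in atg2-4 (−0.11 log2, adjusted p = 0.393). It overlaps AT2G30760 on the opposite strand, which had an interaction of 1.09 log2, and AT2G30770, which had one of 0.46 log2 that did not pass (adjusted p = 0.1002), and their reads cannot be told apart. ORG1, another member, had an interaction of 0.53 ± 0.050 log2. On the linear FPKM scale the list had 6 positive calls and 1 negative call, so 14 against 0 holds for ratios and not for absolute differences. FER1 and FER3, ferritins that store iron, were the 2 of 8 tested iron storage genes with a called interaction (25.0%, beside 13.2% of all genes). With lon2-8, 6 of the 8 rose and 1 fell in Col-0 (all genes: 9.06% and 14.1%). In atg2-4 0 rose and 0 fell (4.44% each). FER1 rose from 35.8, 33.5 and 36.6 FPKM in Col-0 to 66.1, 64.3 and 66.3 in lon2-8, and was at 13.6, 14.5 and 16.3 in atg2-4 and 14.9, 14.9 and 15.9 in the double mutant. FER1 rose by 0.88 log2 in Col-0, and its 0.04 log2 in atg2-4 did not pass (adjusted p = 0.716).

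Among peroxide scavenging and oxidative stress genes a lost rise was the most frequent class, with 7 genes. All 15 were tested. With lon2-8, 11 rose and 0 fell in Col-0 (all genes: 9.06% and 14.1%), and 1 rose and 1 fell in atg2-4 (4.44% each). A negative interaction was called for 9 and a positive one for 0, beside 6.08% and 7.10% of all genes, with a median of −0.24 log2. APX1, the cytosolic ascorbate peroxidase, had 132, 135 and 135 FPKM in Col-0, 265, 269 and 284 in lon2-8, 76.5, 85.0 and 86.3 in atg2-4 and 81.9, 77.2 and 77.4 in the double mutant. Its lon2-8 libraries were far above all others, and its atg2-4 and double mutant libraries overlapped (−1.08 ± 0.064 log2, adjusted p = 7.79e-07). UGT74E2, a glucosyltransferase of indole-3-butyric acid induced by hydrogen peroxide, stood at 1.62, 1.03 and 1.41 FPKM in Col-0, and at 7.66, 6.83 and 10.5 in lon2-8. It was at 0.487, 0.790 and 1.02 FPKM in atg2-4 and at 1.02, 1.07 and 1.09 FPKM in the double mutant, both below all lon2-8 libraries (−1.74 ± 0.21 log2, adjusted p = 0.000127). GSTU1, a glutathione transferase, had an interaction of −0.48 log2.

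Early light-induced proteins, which protect chloroplasts in excess light, had 0 positive and 2 negative interactions of 5 tested, beside 7.10% and 6.08% of all genes. The median interaction of this list was −0.053 log2. The 2 called members, ELIP1 and ELIP2, lost their rise. ELIP2 had 5.23, 6.75 and 6.87 FPKM in Col-0, 51.3, 50.5 and 53.0 in lon2-8, 4.24, 4.02 and 4.11 in atg2-4 and 6.92, 5.01 and 4.93 in the double mutant. Every lon2-8 library was far above all others, and the interaction was −2.50 ± 0.15 log2 (adjusted p = 8.54e-07). ELIP1 had an interaction of −1.45 log2. Genes of flavonoid synthesis, whose products absorb ultraviolet light, had 0 positive and 3 negative calls of 12 tested (25.0%, beside 13.2% of all genes), CHS, CHI and FLS1, all lost rises of 0.34 to 0.55 log2 in Col-0. GH9B15, a glycosyl hydrolase of family 9, rose by 2.16 log2 in Col-0 and had 0.00 log2 in atg2-4. ESM1, which favours the formation of isothiocyanates from glucosinolates, fell from 30.8, 34.1 and 32.6 FPKM to 11.7, 11.2 and 11.4 in lon2-8 and was at 24.1, 22.8 and 23.7 in atg2-4 and 18.9, 19.7 and 22.98 in the double mutant. For ESM1 the atg2-4 and double mutant libraries were close, and 1 overlapped the other group (1.24 ± 0.087 log2, adjusted p = 2.34e-06).

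Some lost responses sit at an end of the scale. AT2G36255, a defensin-like gene, was listed at 0 in all 6 libraries with atg2-4, so a further fall could not be seen, and its interaction of 2.14 log2 follows from a fall of 2.14 log2 in Col-0. AT1G26240, an extensin-like gene in RefSeq, and AT1G26390, an FAD-binding berberine family protein, were under 1 FPKM in Col-0 and at 631 to 666 and 335 to 364 FPKM in atg2-4. AT1G26390 rose to 3.03 to 3.63 FPKM in lon2-8, and its double mutant libraries, at 335 to 381 FPKM, overlapped those of atg2-4. CYP71A12, an early enzyme of indolic phytoalexin synthesis, rose in both backgrounds, by 1.67 log2 in Col-0 and 0.60 log2 in atg2-4. In FPKM the rise was from 3.097 to 3.22 up to 11.2 to 14.3 in Col-0 and from 102 to 109 up to 149 to 166 in atg2-4. Its interaction was −1.07 log2 but 45.8 on the linear FPKM scale, so the sign depends on the scale. Of 13 camalexin and indolic defence genes, 1 had a positive and 3 a negative interaction (30.8%, beside 13.2% of all genes), and on the linear scale these counts were 3 and 0.

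Both enzymes particular to the glyoxylate cycle had a called interaction. ICL, isocitrate lyase, whose response was reduced, had 11.0, 9.27 and 7.90 FPKM in Col-0, 46.0, 47.4 and 45.7 in lon2-8, 43.7, 53.8 and 51.3 in atg2-4 and 81.3, 81.0 and 82.2 in the double mutant. Both single mutants overlapped each other above Col-0, and the double mutant was highest (−1.49 ± 0.13 log2, adjusted p = 1.08e-05). On the linear FPKM scale the ICL interaction was −5.03 and was not called (adjusted p = 0.280). MLS, malate synthase, the next enzyme of the cycle, behaved otherwise: it had 1.99, 1.94 and 1.82 FPKM in Col-0, 10.7, 9.98 and 11.3 in lon2-8, 2.05, 1.90 and 1.45 in atg2-4 and 2.35, 1.77 and 2.15 in the double mutant. Only the lon2-8 libraries stood apart, and the response was lost (−1.86 ± 0.13 log2, adjusted p = 2.35e-06). Of 21 β-oxidation and glyoxylate genes tested, 12 rose and 0 fell with lon2-8 in Col-0 (all genes: 9.06% and 14.1%). In atg2-4 5 rose and 0 fell (4.44% each). A negative interaction was called for 8 and a positive one for 0, beside 6.08% and 7.10% of all genes. The 8 comprised 4 lost, 3 reduced and 1 unplaced response. ACX2, a long-chain acyl-CoA oxidase, rose by 0.44 log2 in Col-0 and by 0.13 log2 in atg2-4.

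AT1G73120, an F-box/RNI superfamily protein in RefSeq, had the largest interaction among the reduced responses named. It had 4.17, 3.36 and 3.27 FPKM in Col-0, 58.8, 63.2 and 61.7 in lon2-8, 2.63, 3.74 and 3.29 in atg2-4 and 4.71, 4.61 and 4.31 in the double mutant. The rise of 3.76 log2 in Col-0 stood beside 0.40 log2 in atg2-4 (interaction −3.36 ± 0.13 log2, adjusted p = 2.81e-08). CP1, a papain-type cysteine protease, had 9.79, 9.47 and 9.39 FPKM in Col-0, 39.4, 40.6 and 36.0 in lon2-8, 2.91, 4.96 and 4.07 in atg2-4 and 7.50, 8.27 and 6.02 in the double mutant. CP1 rose in both backgrounds, from non-overlapping levels, by 1.91 and 0.74 log2. TEM1 and RAV1, related transcriptional repressors of which TEM1 delays flowering, fell by 0.95 and 1.00 log2 in Col-0 and by 0.24 and 0.32 log2 in atg2-4. AT4G01870, a tolB protein-like gene in RefSeq, rose by 1.46 log2 in Col-0 and by 0.24 log2 in atg2-4.

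Core hypoxia genes, which are induced when oxygen is short and include the oxygen-sensing plant cysteine oxidases, were called in both backgrounds. Of 11 tested, 6 rose and 1 fell with lon2-8 in Col-0 (all genes: 9.06% and 14.1%), and 9 rose and 0 fell in atg2-4 (4.44% each). A positive interaction was called for 2 and a negative one for 5, beside 7.10% and 6.08% of all genes. The 5 negative ones were reduced rises. PCO1, a plant cysteine oxidase, had 6.18, 5.64 and 6.74 FPKM in Col-0, 21.1, 20.2 and 22.4 in lon2-8, 9.95, 13.4 and 12.3 in atg2-4 and 22.01, 22.1 and 20.2 in the double mutant. Its lon2-8 and double mutant libraries overlapped, above atg2-4 and above Col-0 (−0.82 ± 0.12 log2, adjusted p = 0.000881). PCO2 reached 26.3 to 27.2 FPKM in the double mutant and 20.0 to 20.9 FPKM in lon2-8, from 6.99 to 7.15 in Col-0 and 13.4 to 16.5 in atg2-4. LBD41, a transcription factor of the same response, had an interaction of −0.39 log2. On the linear scale the list had 4 positive and 3 negative calls, so its direction holds for ratios and not for absolute levels.

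In the sulfur starvation list reduced falls were the most frequent class. These genes take up and reduce sulfate and are induced when sulfur is short. Of 17 listed, 16 were tested. With lon2-8, 10 fell and 2 rose in Col-0 (all genes: 14.1% and 9.06%), and 8 fell and 1 rose in atg2-4 (4.44% each). A positive interaction was called for 10 and a negative one for 1, beside 7.10% and 6.08% of all genes, with 7 reduced responses. LSU2, a member of the small RESPONSE TO LOW SULFUR family, had 17.2, 17.1 and 13.1 FPKM in Col-0, 5.16, 4.29 and 5.15 in lon2-8, 12.1, 11.3 and 11.0 in atg2-4 and 5.73, 6.12 and 6.20 in the double mutant. Both lon2-8 groups lay below both groups without it (0.68 ± 0.13 log2, adjusted p = 0.00421). SHM7, a serine hydroxymethyltransferase regulated with sulfate assimilation, fell by 0.82 log2 in Col-0 and by 0.39 log2 in atg2-4. APR1, which reduces activated sulfate, had an interaction of 0.47 log2. SULTR2;1, a sulfate transporter of vascular tissue, fell by 0.40 log2 in Col-0 and rose by 0.28 log2 in atg2-4.

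Aliphatic glucosinolate genes, which make defence compounds from methionine, had 7 positive and 0 negative interactions of 13 tested, beside 7.10% and 6.08% of all genes. With lon2-8, 7 fell and 0 rose in Col-0 (all genes: 14.1% and 9.06%), and 0 fell and 2 rose in atg2-4 (4.44% each). BCAT4, the aminotransferase that opens methionine chain elongation, had 20.5, 21.9 and 22.1 FPKM in Col-0, 13.6, 14.1 and 15.1 in lon2-8, 13.5, 16.0 and 15.4 in atg2-4 and 17.1, 19.2 and 17.5 in the double mutant. The single mutants overlapped each other, and the double mutant lay between them and Col-0 (0.81 ± 0.091 log2, adjusted p = 8.72e-05). AT3G19700, which overlaps BCAT4 on the opposite strand, had an interaction of 0.76 log2. CYP83A1 and the regulator MYB28 lost falls of 0.60 and 0.50 log2. MYC2, the jasmonate regulator, lost a fall of 0.33 log2, and the jasmonate list as a whole had 5 positive and 4 negative interactions of 19 tested (47.4%, beside 13.2% of all genes). AOC2, an allene oxide cyclase of jasmonate synthesis, rose by 0.36 log2 in Col-0 and fell by 0.34 log2 in atg2-4.

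**Figure D4:**
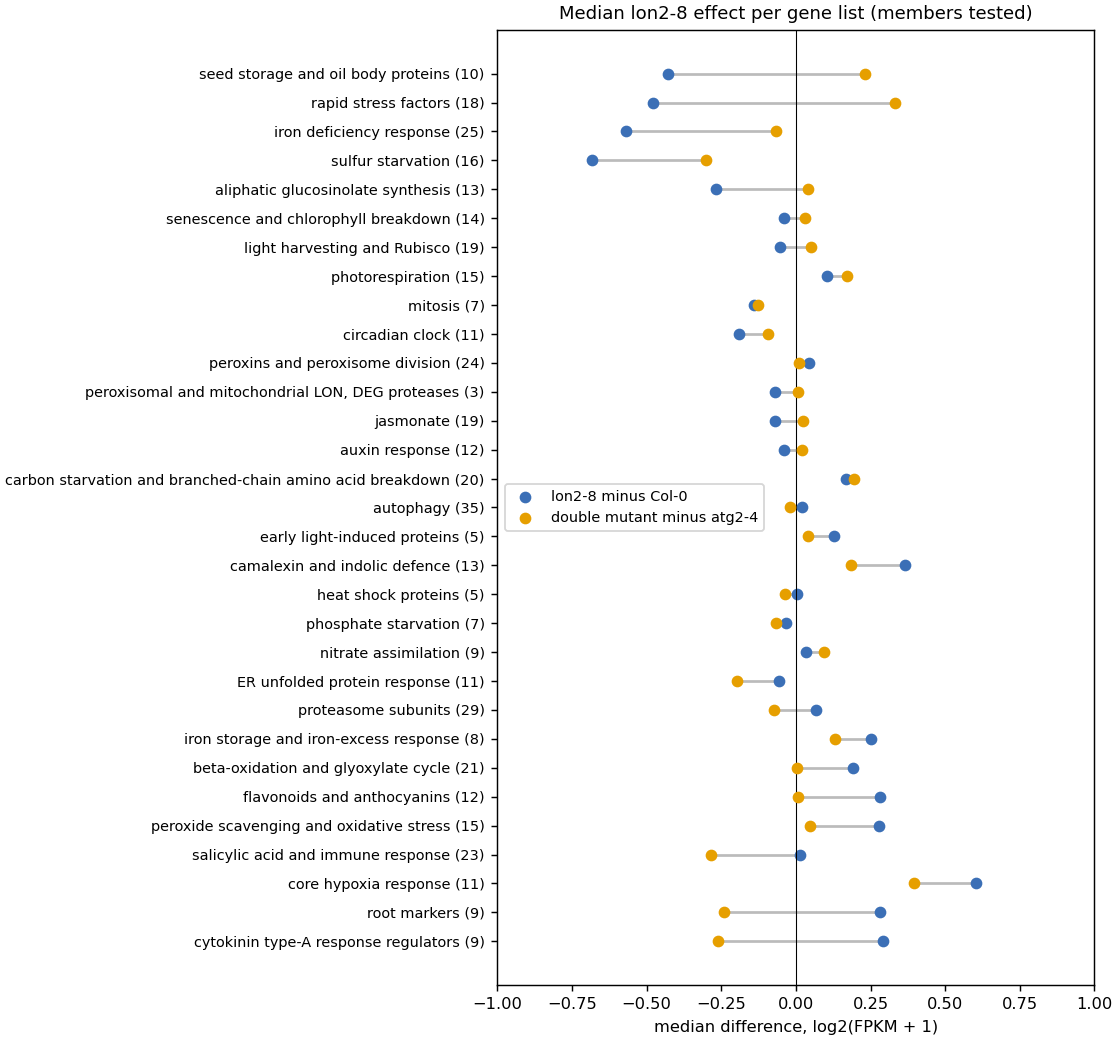
Median effect of lon2-8 in Col-0 (blue) and in atg2-4 (orange) over the tested members of each gene list, on the log2(FPKM + 1) scale, with the number tested in brackets and lists sorted by the median interaction. Rapid stress factors run from −0.48 to 0.33 and cytokinin response regulators from 0.29 to −0.26, while mitosis genes, peroxins and autophagy genes have both points near each other.

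Amplified genes were few, and their count was 10 to 23 when any 1 library was left out. AT2G05540, a glycine-rich protein in RefSeq, had 155, 143 and 147 FPKM in Col-0, 174, 166 and 160 in lon2-8, 182, 180 and 169 in atg2-4 and 308, 339 and 315 in the double mutant. The double mutant stood apart while lon2-8 and atg2-4 overlapped (0.68 ± 0.065 log2, adjusted p = 2.64e-05). SEN1, which is induced by darkness and sugar shortage, had 23.7, 21.5 and 23.4 FPKM in Col-0, 35.4, 33.7 and 34.2 in lon2-8, 37.3, 33.2 and 32.6 in atg2-4 and 61.3, 71.8 and 67.6 in the double mutant. Its interaction was 0.37 ± 0.088 log2 (adjusted p = 0.0149). ASN2, an asparagine synthetase, and PDS1, a dioxygenase of tyrosine breakdown, had interactions of 0.30 and 0.29 log2. MAD1, a spindle checkpoint gene on chromosome 5 like LON2, had 5.09, 4.98 and 5.23 FPKM in Col-0, 1.96, 1.93 and 2.15 in lon2-8, 5.51, 5.09 and 5.53 in atg2-4 and 1.15, 1.08 and 1.14 in the double mutant. Like LON2 it fell further in the double mutant (−0.57 ± 0.087 log2, adjusted p = 0.000910), whereas CDKB2;1, a mitotic kinase, had an interaction of 0.12 log2 that did not pass (adjusted p = 0.665). AT5G49890 overlaps MAD1 on the opposite strand, at 13.7 to 15.5 FPKM on average per group. Its interaction was −0.27 log2 (limma, adjusted p = 0.0371), and reads of MAD1 and AT5G49890 cannot be told apart. NSP3, a nitrile specifier protein, and AT5G10760, an aspartyl protease in RefSeq, had interactions of −0.45 and −0.47 log2.

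Salicylic acid and immune genes were raised by atg2-4, and lon2-8 effects on them were called in both backgrounds. Of 24 salicylic acid and immune genes, 23 were tested, and with atg2-4 22 rose and 0 fell. With lon2-8, 3 rose and 5 fell in Col-0 and 0 rose and 14 fell in atg2-4, and 2 had a positive and 8 a negative interaction, 5 of them called in atg2-4 and not in Col-0. Over all genes tested 21.3% rose and 27.2% fell with atg2-4 in Col-0, and 9.06% rose and 14.1% fell with lon2-8 in Col-0. With lon2-8 in atg2-4 4.44% rose and 4.44% fell, and 7.10% had a positive and 6.08% a negative interaction. ALD1, which starts N-hydroxypipecolate synthesis, had 0.263, 0.296 and 0.213 FPKM in Col-0, 0.401, 0.381 and 0.463 in lon2-8, 8.15, 7.55 and 7.72 in atg2-4 and 3.74, 3.88 and 3.86 in the double mutant. The double mutant lay below atg2-4 and above both others (−1.04 ± 0.096 log2, adjusted p = 1.98e-05). AT4G33720, a PR-1-like secreted protein, and AT3G03670, a peroxidase, were under 1 FPKM in Col-0 and lon2-8, at 21.5 to 25.1 and 19.5 to 21.8 FPKM in atg2-4 and at 10.5 to 12.0 and 11.2 to 12.5 FPKM in the double mutant. A fall below a level under 1 FPKM could not be seen. PR1, a salicylic acid marker, rose by 0.98 log2 with lon2-8 in Col-0 and its change in atg2-4 was 0.21 log2, which did not pass. ACD6, a membrane protein that promotes salicylic acid signalling, fell by 1.45 log2 in Col-0 and by 0.47 log2 in atg2-4, but its interaction was −0.16 on the linear FPKM scale and 0.98 on the log2 scale.

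Seed storage and oil body genes had positive interactions. Of 13 listed, 10 passed the filter, and 7 of these had a positive and 0 a negative interaction, beside 7.10% and 6.08% of all genes. Levels were low, and a gene could pass the filter through the 3 double mutant libraries alone, which favours positive interactions. With a filter of 5 FPKM in 3 libraries only 2 members were tested, and 2 had a positive interaction. PER1, a seed peroxiredoxin that is not on that list, had 1.51, 2.34 and 2.33 FPKM in Col-0, 1.44, 1.05 and 1.42 in lon2-8, 2.85, 4.63 and 3.73 in atg2-4 and 10.3, 12.2 and 11.7 in the double mutant. OLEO1, an oleosin of seed oil bodies, had 1.82, 1.65 and 3.35 FPKM in Col-0, 1.46, 0.947 and 1.31 in lon2-8, 3.02, 2.53 and 2.73 in atg2-4 and 7.60, 10.0 and 6.56 in the double mutant. EM6, a late embryogenesis protein, had an interaction of 1.41 ± 0.23 log2, beside 1.81 ± 0.20 log2 for PER1 and 1.77 ± 0.25 log2 for OLEO1. For PER1 and OLEO1 every double mutant library lay above all 9 others. The albumins moved otherwise: SESA3 and SESA4 fell with lon2-8 in Col-0 and their changes in atg2-4 did not pass. The sum of both mutations put SESA3 at −0.405 FPKM and SESA4 at −0.277 FPKM in the double mutant. No level can lie below 0, so the positive sign of these interactions was fixed by the floor. The part of remaining seed tissue in these values was not tested.

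**Figure D5:**
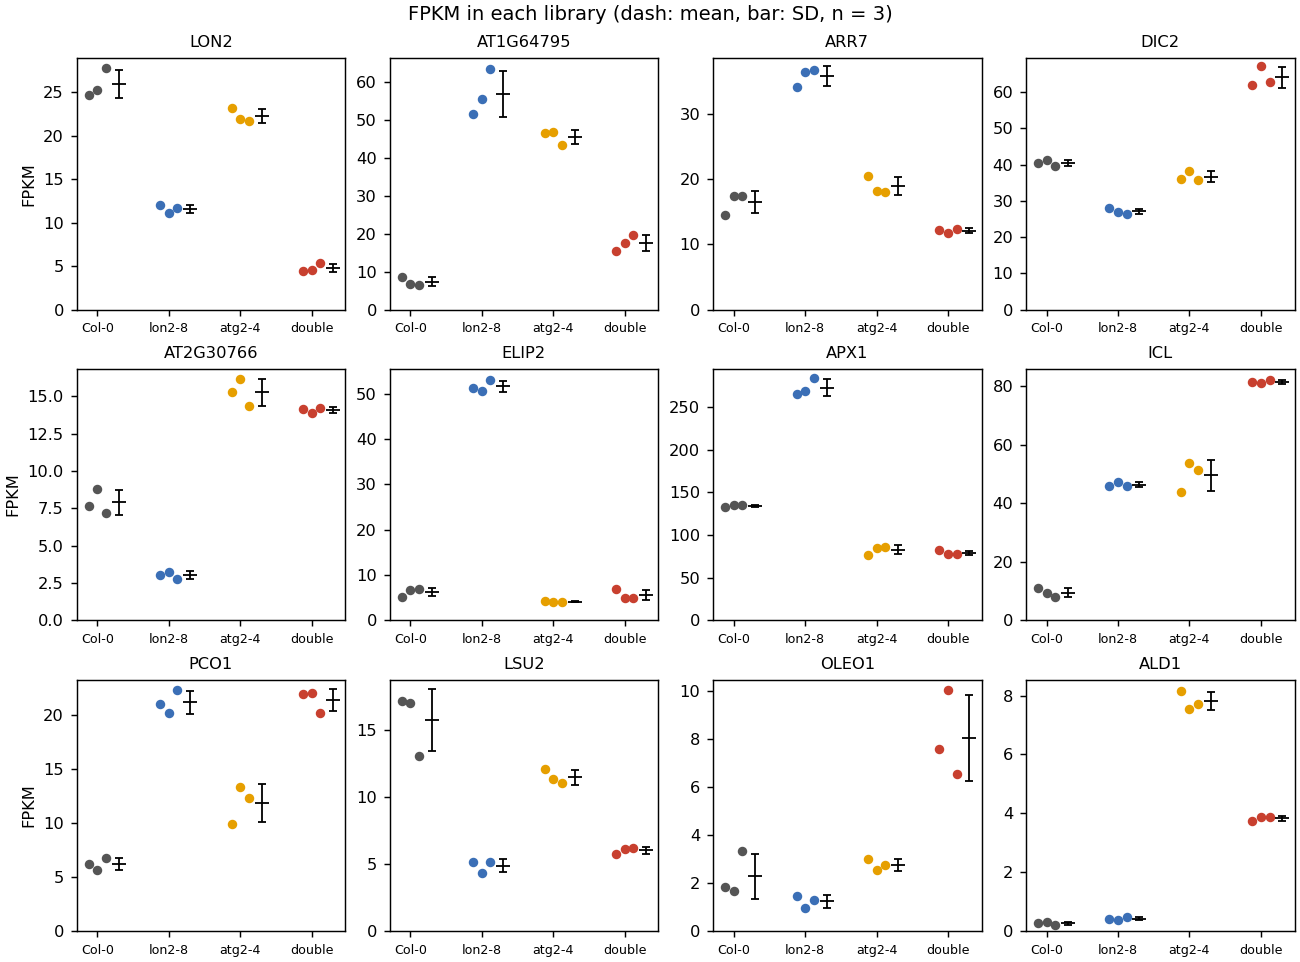
FPKM in each library (vertical axes, linear and starting at 0) for 12 genes in the 4 groups (horizontal axes), with points for libraries, a dash for the mean and a bar for the SD of 3 libraries. ARR7 and DIC2 show reversal, AT2G30766, ELIP2 and APX1 loss, ICL, PCO1 and LSU2 reduction, LON2 amplification, and OLEO1 and ALD1 a change called in the atg2-4 background.

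The photosynthetic and nitrogen genes named here had interactions of at most 0.59 log2 in size. Of 19 light harvesting and Rubisco genes tested, 4 had a positive and 0 a negative interaction (21.1%, beside 13.2% of all genes). Of 9 nitrate assimilation genes tested, 3 had a positive and 3 a negative one (66.7%). GGT1, a glutamate:glyoxylate aminotransferase of photorespiration in peroxisomes, had 352, 357 and 368 FPKM in Col-0, 359, 358 and 367 in lon2-8, 314, 305 and 300 in atg2-4 and 353, 364 and 371 in the double mutant. Here atg2-4 alone was low, and the other 3 groups overlapped (0.24 ± 0.043 log2, adjusted p = 0.00297). GOX1, a glycolate oxidase, and GLDP2, a subunit of glycine decarboxylase, shared that class, and the photorespiration list had 3 positive and 0 negative interactions of 15 tested (20.0%, beside 13.2% of all genes). RBCS2B, a Rubisco small subunit, fell by 0.35 log2 with lon2-8 in Col-0 and rose by 0.24 log2 in atg2-4, although near-identical RBCS copies can share reads. NIA2, the main nitrate reductase, had 517, 540 and 542 FPKM in Col-0, 525, 533 and 526 in lon2-8, 575, 573 and 561 in atg2-4 and 701, 699 and 733 in the double mutant. It rose in the atg2-4 background (0.33 ± 0.042 log2 interaction), whereas NIA1, the other nitrate reductase, rose in both, with an interaction of −0.32 log2.

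Senescence genes had 5 positive and 0 negative interactions of 14 tested, beside 7.10% and 6.08% of all genes. NAP, a NAC factor of leaf senescence, had 7.98, 8.35 and 8.48 FPKM in Col-0, 2.37, 2.73 and 2.80 in lon2-8, 9.07, 10.3 and 10.3 in atg2-4 and 8.92, 9.28 and 8.80 in the double mutant. Its fall in Col-0 was lost (1.23 ± 0.088 log2, adjusted p = 2.37e-06), as was that of ORE1, another NAC factor (0.66 log2). The clock genes CCA1, LHY and RVE8, which are expressed around dawn, lost small falls of 0.19 to 0.38 log2. Carbon starvation and branched-chain amino acid genes had 4 positive and 4 negative interactions of 20 tested, beside 7.10% and 6.08% of all genes. KMD4, an F-box protein, and the trehalose phosphate synthase homologue TPS8 were among the positive ones (0.59 and 0.33 log2, KMD4 with overlapping opposite-strand genes at 0.63 and −0.07 log2), as was EXL1 (0.57 log2), a gene of low-energy growth.

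Greater than additive responses were taken as a double mutant called against Col-0 whose change exceeded the sum of the sizes of both single-mutant changes, in the direction of the interaction. There were 350 such genes, 12.9% of the called interactions, 191 higher and 159 lower, and for 136 of them neither single mutant was called. They fell mostly among the genes called in the atg2-4 background and not in Col-0, with 234, and 13 of them had an interaction of at least 2-fold. All 3 comparisons share the Col-0 libraries. The largest that met the rule for named genes were PER1, OLEO1, EM6, the MIR398b precursor locus and ZAT10. MIR398b, whose mature product silences copper superoxide dismutases, had 6.73, 7.07 and 4.38 FPKM in Col-0, 4.47, 2.83 and 4.36 in lon2-8, 7.78, 6.60 and 6.70 in atg2-4 and 12.6, 10.7 and 10.6 in the double mutant. Poly-A libraries do not measure the mature product, and AT5G14550, which overlaps MIR398b on the opposite strand at 4.45 to 5.29 FPKM on average per group, may share its reads. AT3G06355, a long noncoding RNA called in the atg2-4 background with an interaction of 1.27 log2, overlaps an rRNA gene on the same strand. It was at 169, 137 and 149 FPKM in atg2-4 and at 260 to 357 FPKM in the other 9 libraries, and the part of residual rRNA was not tested.

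Peroxisome and autophagy genes were read beside the 13.2% of all genes called for the interaction. Of 24 peroxins and division factors tested, 1 had a called interaction, FIS1A, at −0.24 log2 (adjusted p = 0.0377), a call that 3 of 12 fits without 1 library kept. Of 35 autophagy genes 2 were called. ATG8H, one of the ubiquitin-like proteins of the autophagosome membrane, had 13.9, 12.6 and 14.9 FPKM in Col-0, 19.6, 21.5 and 19.9 in lon2-8, 46.1, 51.3 and 48.3 in atg2-4 and 42.0, 38.6 and 41.5 in the double mutant. It rose with lon2-8 in Col-0 and fell with it in atg2-4 (−0.78 ± 0.086 log2, adjusted p = 7.35e-05). AT2G44140, a peptidase of family C54, lost a fall of 0.56 log2, and AT2G44130, which overlaps it on the opposite strand, had a like interaction of 0.79 log2. LON1, the mitochondrial Lon protease, had an interaction of 0.25 log2 (adjusted p = 0.0411), which 2 of 12 fits without 1 library kept. Proteasome subunits had 0 positive and 5 negative interactions of 29 tested (17.2%, beside 13.2% of all genes), at −0.21 log2 for RPT2A, −0.20 log2 for PAC1 and −0.23 log2 for RPN12A, and the count of negative calls was 10 with median centring and 13 with voom. BIP3, an inducible ER chaperone, reversed at levels of 0.288 to 2.54 FPKM (−1.23 ± 0.18 log2), while SHD, the ER HSP90, had an interaction of −0.15 log2. HSP90.1, a cytosolic chaperone, was the 1 of 5 heat shock genes called, at −0.26 log2. Of the 12 fits without 1 library, 3 kept the call of SHD, 3 that of HSP90.1 and 3 that of IAA29. IAA2 and IAA29, auxin response repressors, were 2 of 12 auxin genes called, and the phosphate genes PHT1;1 and SPX1 2 of 7, at −0.72 and −0.77 log2.

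The authors' deposited table marks genes as up or down, both for the effect of lon2-8 in Col-0 and for its effect in atg2-4. For the 263 reversal genes, the authors' deposited table gave the direction found here for 209 in Col-0 and 187 in atg2-4, opposite marks in both comparisons for 158 and a contrary mark for 0. Of the 1630 lost genes, 1285 were marked in Col-0 and unmarked in atg2-4 in the authors' deposited table. Of the 438 genes called in atg2-4 and not in Col-0, it marked 317 in the same direction in atg2-4 and 20 in Col-0.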

How the data were processed

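RNA was measured in whole seedlings by poly-A-selected paired-end sequencing, in 12 libraries of 4 genotypes. The deposited values are FPKM per gene, per the file headers. The submitters' processing notes list Salmon 0.8.2, STAR 2.5.1a, featureCounts 1.4.6-p5 of Subread, limma, edgeR and bcl2fastq, without saying what each was used for. A build and a strand setting are likewise not stated there. The authors' marks of up or down genes were only copied.

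A gene was tested if 3 or more libraries reached 1 FPKM, on log2(FPKM + 1), which understates changes of low genes. A limma 3.58.1 trend fit (R 4.3.3) of 4 group means gave each contrast, with Benjamini-Hochberg adjustment and a threshold of 0.05. Tables were made with pandas 2.3.3 and numpy 2.4.6 under Python 3.11.15, and figures with matplotlib 3.10.9. Whole fragments recovered from the FPKM steps gave depth and a voom alternative. The fit was tested on simulated data.

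The members and the gene lists were chosen with earlier results of these data known. Named genes were LON2, ATG2, the 4 of largest interaction per class and sign with a group mean of at least 5 FPKM and a call in all 12 fits without 1 library, the 5 largest greater than additive, and up to 3 per list by adjusted p. Other list members are named only to account for a class, after their values were seen. Other settings tried were pseudocount, filter, centring, variance trend, scale, replicate block and each library left out. Gene descriptions and overlaps are from RefSeq, TAIR10.1.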

Additional observations from a re-analysis of the deposited data

Results flagged for a closer look

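The effect of lon2-8 differed between Col-0 and atg2-4, by the interaction test of limma, for 2723 genes, and in 263 of them both effects were called with opposite signs. The results below are the named genes among those reversals, each picked out because the change went opposite ways in the 2 backgrounds. Interactions above 0 on the log2(FPKM + 1) scale were 2.60 for AT5G59170, 2.02 for EPR1, 1.81 for AT1G34047, 1.61 for AT1G34049, 1.35 for DIC2, 1.14 for MIR398b, 1.09 for ZAT10, 1.06 for ERF104, 0.81 for BCAT4, 0.68 for SULTR2;1 and 0.59 for RBCS2B. For AT1G34049 the sum of both mutations lay below 0 FPKM, so the sign of its interaction was fixed by the floor. Interactions below 0 were −4.13 for AT1G64795, −2.12 for AT3G45851, −1.68 for ARR7, −1.64 for GLP9, −1.23 for BIP3, −1.02 for EXP7, −0.85 for LRX1, −0.81 for ARR4, −0.78 for ATG8H, −0.77 for SPX1, −0.71 for AOC2 and −0.66 for ARR6.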

How the results depend on the processing

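With 3 libraries a group, an interaction has a median SE of 0.10 log2, so small interactions were not detectable. The count of called interactions was 2658 with a pseudocount of 0.1 FPKM, 2559 without a filter, 2545 with a filter of 5 FPKM, 2687 with median centring, 2434 without a variance trend, 2804 on the linear FPKM scale and 3412 with voom, of which 45.7% were above 0 (53.8% in the report). The number of at least 2-fold interactions moved to 287 with the pseudocount of 0.1 FPKM and 332 with voom, and that of amplified genes to 11 without a variance trend and 36 on the linear scale. With 1 library left out, called interactions numbered 2094 to 2753 (1127 to 1463 above 0, 967 to 1290 below), 2-fold ones 132 to 166, suppression 1363 to 1761, reversal 149 to 255, amplification 10 to 23, calls in the atg2-4 background alone 245 to 436 and greater than additive ones 257 to 368. Reversal fell to 151 without atg2-4 replicate 3, 157 without double mutant replicate 2 and 149 without double mutant replicate 3, and calls in the atg2-4 background alone to 257, 253 and 245 without the same libraries. Amplification fell to 12 without atg2-4 replicate 3, to 13, 10 and 11 without Col-0 replicates 1, 2 and 3, to 12 and 13 without double mutant replicates 2 and 3, and to 11 without lon2-8 replicate 1. On the linear FPKM scale 11 of the 115 called named genes were no longer called, with adjusted p of 0.0657 for LON2, 0.280 for ICL, 0.299 for PCO2, 0.321 for PR1, 0.988 for AT1G26390, 0.0639 for BHLH100, 0.0981 for ORG1, 0.0841 for FIS1A, 0.0567 for HSP90.1, 0.103 for SHD and 0.051 for NSP3. Interactions changed sign on the linear scale for ACD6 (−0.158), CYP71A12 (45.8) and AT1G26380 (2.60), and for CDKB2;1, not called in the report, without atg2-4 replicate 1 (−0.0173, in a range of −0.0173 to 0.197 over the fits without 1 library). The cause was not tested. Of 115 called named genes, 109 kept direction and call in all 12 fits without 1 library. The replicate numbers do not pair the samples: deviations of same-numbered libraries correlated at −0.0572 to 0.0487, 6 of 12 libraries correlated best with their own number, and a replicate block gave 2540 called interactions.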
